A study of Mus musculus with 10 samples.

Results

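Immediate early genes are a group of genes that cells switch on within minutes of a stimulus, before new protein is made. The 10 genes described here are the AP-1 subunit genes Jun, Junb, Jund, Fos and Fosb, the zinc finger transcription factor gene Egr1, the early response genes Ier2, Ier3 and Ier5, and Dusp1, which encodes a phosphatase that switches MAP kinases off. They were picked by gene symbol out of 53392 genes counted, and 9 of the 10 passed the filter on low counts. They were measured by RNA sequencing of whole liver in 5 Fbp1-deleted mice and 5 wild type (WT) mice, all 24 weeks old and on the C57BL/6 background. Fbp1 encodes the fructose bisphosphatase of hepatic gluconeogenesis. The labels place the deficiency in the liver, and the allele, the promoter or Cre line used to make it, the sex, the hour of collection, the feeding state and the time from death to snap-freezing were not stated in those labels.

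AP-1 is a dimer made of a Jun family protein with a Fos, ATF or another Jun family protein, and its make-up sets how strongly it activates its targets: c-Jun (Jun) is a strong activator, JunB (Junb) a weaker one that can restrain c-Jun, and JunD (Jund) is the member that resting cells hold. The kinase JNK phosphorylates c-Jun, which also acts on its own gene, whereas the kinase ERK acts through serum response factor and its partners on Fos, Egr1 and Ier2. In the liver, Jun is known for its part in regeneration after partial hepatectomy and in hepatocyte survival. Many of these transcripts are short-lived and respond to feeding, hormones, injury and handling of the tissue.

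Totals lay between 17778395 and 23894812 estimated counts per library. Fbp1 itself was at 9.39 ± 2.38 counts-per-million (CPM) in Fbp1-deleted livers and 909.6 ± 119 CPM in WT livers (SD, n = 5 each), with no overlap. The hepatocyte markers Alb, Ttr, Apoa1, Apob, Cyp2e1 and Ass1 were present in all libraries, their sum between 79110 and 90620 CPM in Fbp1-deleted and between 54350 and 95540 CPM in WT livers, and 1 of the 6, Cyp2e1, was called (lower). On the first principal component of all genes tested, Fbp1-deleted replicate 8 stood apart from its group, with a score of 6.39 where the other 4 Fbp1-deleted livers had 35.3 to 54.5 and the WT livers -46.6 to -18.2. Values below are CPM scaled by TMM, and each change is a log2 difference, Fbp1-deleted minus WT, followed by its standard error (SE). A gene is called where its Benjamini-Hochberg adjusted p over all 15392 genes tested was under 0.05 in edgeR's quasi-likelihood test.

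The sequences just upstream of 4 of the genes are shown because these 4 hold the motifs found and stand on different sides of the comparison. They are the RefSeq promoters (build GRCm38.p6) of Jun and Dusp1, which were higher in Fbp1-deleted livers, of Junb, which was lower, and of Fos, which was not called. Capitals mark TGACATCA in Jun, TGACGT and TGACGTCA (the cAMP response element, which contains TGACGT) in Dusp1, TGACGT and TATAAA in Fos, and TATAAA in Junb. Each reads 5′ to 3′ on the gene's own strand up to the RefSeq start, and that of Junb runs through the TATAAA that begins at that start. The GENCODE start of Junb, at 84978718, lies downstream of this TATAAA. The coordinates are chr4:95052223-95052472 (minus strand) for Jun, chr17:26508473-26508722 (minus) for Dusp1, chr12:85473640-85473889 (plus) for Fos and chr8:84978743-84978998 (minus) for Junb.
Jun: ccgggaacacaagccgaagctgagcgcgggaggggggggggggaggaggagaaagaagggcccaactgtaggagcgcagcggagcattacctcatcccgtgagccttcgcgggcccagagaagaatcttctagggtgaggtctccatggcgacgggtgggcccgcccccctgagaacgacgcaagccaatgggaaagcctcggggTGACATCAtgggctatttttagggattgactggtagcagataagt
Dusp1: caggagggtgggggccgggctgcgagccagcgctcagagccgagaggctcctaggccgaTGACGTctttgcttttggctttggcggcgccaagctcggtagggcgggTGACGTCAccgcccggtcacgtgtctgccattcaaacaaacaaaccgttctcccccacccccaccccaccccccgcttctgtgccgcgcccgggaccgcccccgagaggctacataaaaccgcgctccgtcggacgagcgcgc
Fos: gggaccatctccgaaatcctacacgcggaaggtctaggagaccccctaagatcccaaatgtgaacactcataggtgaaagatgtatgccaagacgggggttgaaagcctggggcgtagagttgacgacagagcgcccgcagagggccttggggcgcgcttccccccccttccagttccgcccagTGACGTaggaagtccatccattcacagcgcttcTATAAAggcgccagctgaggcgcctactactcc
Junb: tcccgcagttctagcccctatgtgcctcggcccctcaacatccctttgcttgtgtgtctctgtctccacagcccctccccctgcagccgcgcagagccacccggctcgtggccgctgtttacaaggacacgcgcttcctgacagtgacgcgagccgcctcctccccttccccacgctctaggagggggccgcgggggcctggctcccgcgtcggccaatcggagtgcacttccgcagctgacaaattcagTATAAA

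Windows from 250 bases before to 50 bases after the RefSeq start were searched for 8 of the 10 genes, and those of Ier2 and Egr1 were not used here. Both strands were searched. The full cAMP response element TGACGTCA, the site of CREB, was found in 1 of the 8 windows, that of Dusp1, 143 to 136 bases before its start, and 1.79% of the 32851 promoter windows hold it. TGACGT and TGACATCA were added to the search after the sequences were seen. TGACGT was found in 2 of the 8 windows, those of Dusp1 (also 191 to 186 bases before the start) and Fos (66 to 61 bases before), against 7.51% of all windows. The AP-1 variant TGACATCA, through which c-Jun is known to act on its own gene, was found in the window of Jun, 45 to 38 bases before the start, against 3.62% of all windows. TATAAA was found in the windows of Fos and Junb, against 13.6% of all windows. The AP-1 site TGACTCA, the EGR site GCGTGGGCG and the CArG box of serum response factor matched no window of the 8, and they stand in 5.2%, 0.612% and 1.63% of all windows. With motifs this scarce, 8 windows cannot show that these genes lack them, and sites beyond the windows were not searched. Jun, Fos and Ier5 have the same start in RefSeq and GENCODE. The RefSeq starts of Jund and Junb lie upstream of the GENCODE starts, and those of Ier3 and Fosb downstream. The windows of Jund and Dusp1 do not adjoin the GENCODE start. That of Dusp1 lies within its GENCODE span, which ends at 26562128.

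Immediate early genes moved in both directions in Fbp1-deleted livers. Jun and Dusp1 rose, Junb, Egr1, Ier2, Ier3 and Ier5 fell, and Jund, Fos and Fosb were not called. So 7 of the 9 genes tested were called, 2 higher and 5 lower, where 20.6% of all genes tested were called, 10.6% higher and 10.02% lower. Of all calls 51.5% were higher, and 37.7% with library totals or 40.3% with upper quartile factors in place of TMM; the 2 higher and 5 lower calls stood under each of these. Without Fbp1-deleted replicate 8, 3 were higher (Jun, Dusp1 and Jund) and 4 lower, Egr1 being lost. The median change of the 9 was -0.83, against 0.01 over all genes tested. These genes were listed with their changes in these livers already known, so the count describes them and does not stand as independent evidence. Groups did not overlap for 2 of the 9, Ier2 and Ier5, both lower, where 13.5% of all genes tested did not overlap, 6.57% with Fbp1-deleted livers higher and 6.89% with them lower.

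**Figure D1:**
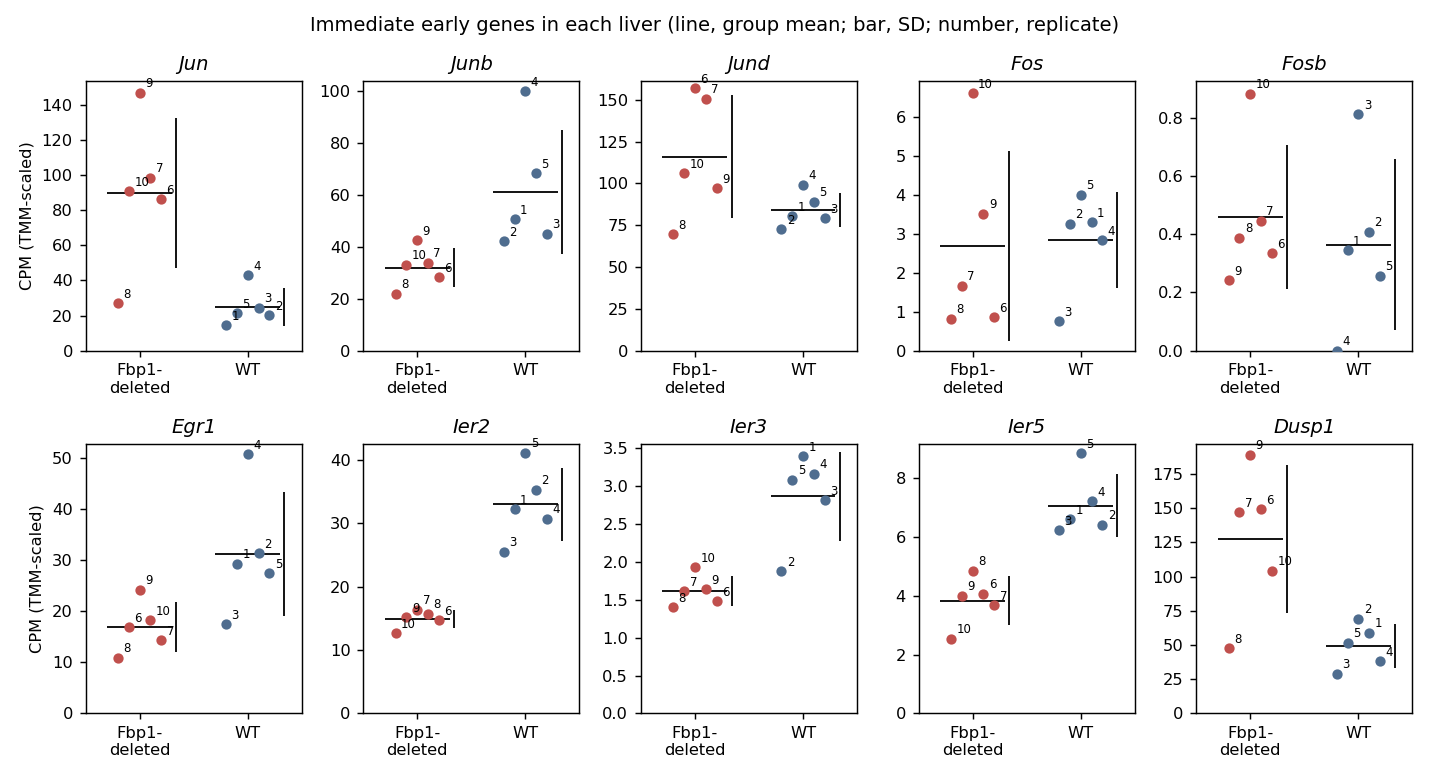
CPM (linear axis from 0) of each of the 10 genes in each liver, with Fbp1-deleted livers in red and WT livers in blue, numbered by replicate. The line is the group mean and the bar the SD (n = 5); Jun and Dusp1 lie above all WT livers in 4 of 5 Fbp1-deleted livers, with replicate 8 at 27.1 and 47.5 CPM, and Ier2 and Ier5 lie below all WT livers in all 5.

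Jun rose the most. The gene (ENSMUSG00000052684.4, chromosome 4, 95049034 to 95052222, minus strand, GRCm38) is a single-exon gene coding for c-Jun. Its level was 86.3, 98.5, 27.1, 146.8 and 90.8 CPM in Fbp1-deleted replicates 6 to 10, against 14.6, 20.1, 24.4, 43.05 and 21.4 CPM in WT replicates 1 to 5. The groups overlapped through Fbp1-deleted replicate 8, which lay below WT replicate 4, and the other 4 Fbp1-deleted livers stood above all WT livers. The means were 89.9 ± 42.6 CPM in Fbp1-deleted and 24.7 ± 10.9 CPM in WT livers, a change of 1.86 (SE 0.43), or 3.64-fold higher, with adjusted p = 0.016 (edgeR). An exact two-sided permutation test over the 10 livers gave p = 0.0159, where the smallest p that 5 livers against 5 allow is 0.00794. Without Fbp1-deleted replicate 8 the change was 2.10 (adjusted p = 0.00093, edgeR). It was 1.62 without Fbp1-deleted replicate 9 (adjusted p = 0.0368), and without WT replicate 2 the adjusted p was 0.045.

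Dusp1, the MAP kinase phosphatase with p38 and JNK among its substrates, rose as well and was high in the same 4 livers. The annotation gives the gene (ENSMUSG00000024190.6) as chromosome 17, 26505590 to 26562128, minus strand, and lists a later version of its identifier. Dusp1 stood at 149.3, 147.3, 47.5, 189.2 and 104.4 CPM in Fbp1-deleted replicates 6 to 10, against 58.9, 69.3, 29.1, 38.2 and 51.6 CPM in WT replicates 1 to 5. Again replicate 8 was the 1 Fbp1-deleted liver within the WT range. The change was 1.37 (SE 0.36), or 2.58-fold higher (adjusted p = 0.0247, edgeR; exact permutation p = 0.0317). The adjusted p was between 0.0528 and 0.0598 when any 1 of Fbp1-deleted replicates 6 and 9 and WT replicates 4 and 5 was left out, which ends the call, and without replicate 8 the change was 1.58 (adjusted p = 0.00123).

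**Figure D2:**
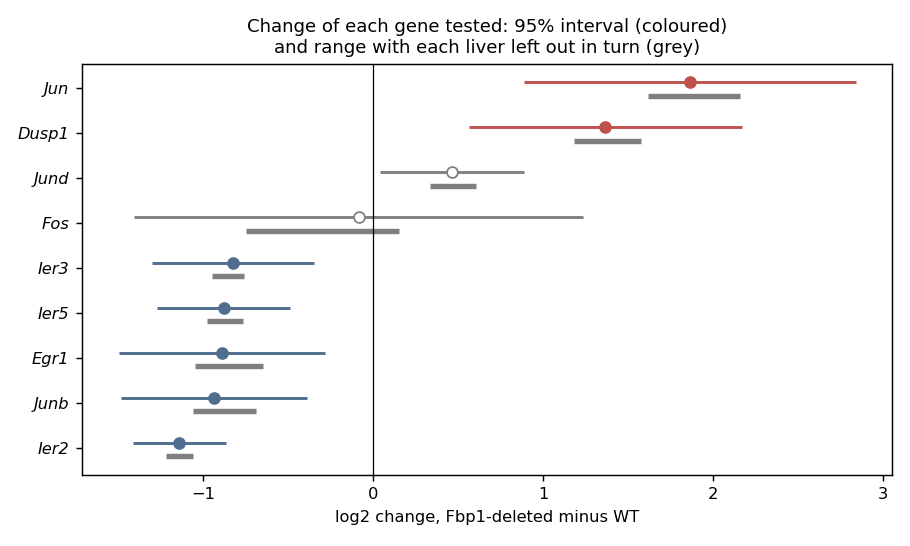
Log2 change of each gene tested, Fbp1-deleted minus WT, with its 95% interval (coloured line; red, called higher; blue, called lower; open grey, not called) and the range of the change with each liver left out in turn (grey bar, n = 9 livers each). Jun and Dusp1 lie above 0 at 1.86 and 1.37, 5 genes lie between -1.14 and -0.83, and the interval of Fos runs from -1.40 to 1.24.

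Junb went the opposite way from Jun. It stands on the minus strand of chromosome 8 (ENSMUSG00000052837.6, 84974484 to 84978718). Junb was at 28.4, 33.8, 21.96, 42.6 and 33.2 CPM in Fbp1-deleted replicates 6 to 10, against 50.7, 42.25, 45.1, 99.9 and 68.3 CPM in WT replicates 1 to 5. The groups touched by a narrow margin, Fbp1-deleted replicate 9 lying just above WT replicate 2, and WT replicate 4 was far above the other WT livers. The change was -0.94 (SE 0.25), or 1.92-fold lower (adjusted p = 0.0224, edgeR; exact permutation p = 0.0159). The call was lost without Fbp1-deleted replicate 6 (adjusted p = 0.0598).

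Jund, the most abundant Jun family transcript in these livers, was not called. It lies on the plus strand of chromosome 8 (ENSMUSG00000071076.6, 70698949 to 70700616). Jund had 156.9, 150.7, 69.7, 97.2 and 106.1 CPM in Fbp1-deleted replicates 6 to 10, against 80.5, 72.6, 79.3, 99.3 and 89.1 CPM in WT replicates 1 to 5. Replicates 6 and 7 stood above all other livers, and replicate 8 was the lowest of the 10. The change was 0.46 (SE 0.19, 95% interval 0.04 to 0.89, adjusted p = 0.11, edgeR). Without Fbp1-deleted replicate 8 it was 0.60 and passed (adjusted p = 0.0104).

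On a scale that divides counts by the length of the longest annotated transcript and sets each library's sum to the same total, the make-up of the Jun family differed between the groups in every liver. Jun made up 19.8%, 22.1%, 13.6%, 36.0% and 25.8% of the summed Jun, Junb and Jund level in Fbp1-deleted replicates 6 to 10, against 5.67%, 8.60%, 9.56%, 10.5% and 6.86% in WT replicates 1 to 5. Junb made up 11.5% to 19.4% in Fbp1-deleted livers, against 31.1% to 43.1% in WT livers. Neither share overlapped between the groups. The level of Junb over that of Jun was 0.579, 0.605, 1.43, 0.512 and 0.644 in Fbp1-deleted replicates 6 to 10, against 6.11, 3.71, 3.26, 4.09 and 5.62 in WT replicates 1 to 5. Fbp1-deleted replicate 8, whose Jun and Junb levels were both the lowest of its group, kept a ratio outside the WT range. Its Jun level lay within the WT range of Jun, and its Junb level below the WT range of Junb. Jund held 60.7 ± 9.45% in Fbp1-deleted and 55.9 ± 5.71% in WT livers, with overlap. These shares were computed after the values were seen and were not tested.

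**Figure D3:**
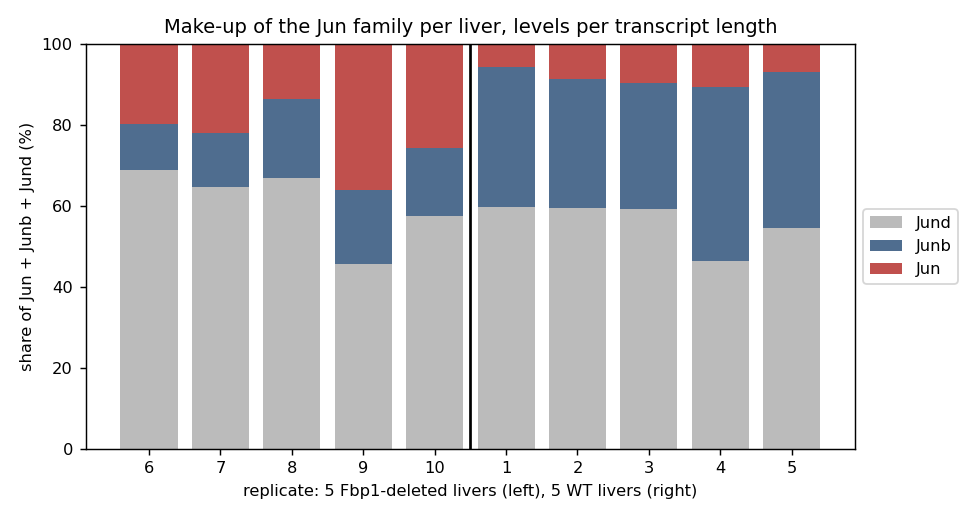
Share (%) of Jun (red), Junb (blue) and Jund (grey) in the summed Jun family level per transcript length, for 5 Fbp1-deleted livers on the left and 5 WT livers on the right, 1 bar per liver, labelled by replicate. Jun takes 13.6% to 36.0% in Fbp1-deleted livers and 5.67% to 10.5% in WT livers.

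Transcripts of Fos and Fosb were scarce and varied from liver to liver. Fos, on the plus strand of chromosome 12 (ENSMUSG00000021250.13, 85473890 to 85477273), had 0.862, 1.67, 0.824, 3.52 and 6.61 CPM in Fbp1-deleted replicates 6 to 10, against 3.30, 3.27, 0.758, 2.84 and 4.01 CPM in WT replicates 1 to 5. The highest liver was Fbp1-deleted replicate 10 and the lowest WT replicate 3, and the Fbp1-deleted livers spanned nearly the whole range. The change was -0.08 (SE 0.60, adjusted p = 0.94, edgeR) with a 95% interval of -1.40 to 1.24, which spans changes of more than 2-fold in both directions. Its sign turned when WT replicate 5, or Fbp1-deleted replicate 6, 7 or 8, was left out. Fos had a biological coefficient of variation of 0.641, above 97.3% of all genes tested. Fosb (ENSMUSG00000003545.3, chromosome 7, 19302696 to 19310051, minus strand) was below the filter, with 7, 8, 8, 4 and 16 counts in Fbp1-deleted replicates 6 to 10, against 7, 10, 15, 0 and 5 counts in WT replicates 1 to 5. These groups overlapped, and with no filter the change of Fosb was 0.31 (adjusted p = 0.794 over 33695 genes, edgeR). Of the wider Fos family, Fosl2 stood at 33.1 ± 20.3 CPM in Fbp1-deleted and 18.1 ± 8.06 CPM in WT livers (adjusted p = 0.212), and Fosl1 at 0.614 ± 0.183 CPM in Fbp1-deleted and 0.640 ± 0.381 CPM in WT livers (adjusted p = 0.927, both edgeR).

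Egr1, whose product binds GC-rich sites and also drives the corepressors that restrain it, was lower in Fbp1-deleted livers. Egr1 (ENSMUSG00000038418.7, chromosome 18, 34859823 to 34864984, plus strand) had 16.8, 14.3, 10.9, 24.2 and 18.2 CPM in Fbp1-deleted replicates 6 to 10, against 29.3, 31.3, 17.4, 50.7 and 27.4 CPM in WT replicates 1 to 5. All but WT replicate 3 stood above all Fbp1-deleted livers. The change was -0.89 (SE 0.28), or 1.85-fold lower (adjusted p = 0.0423, edgeR; exact permutation p = 0.0238). It was the weakest of the 7 calls: it was lost in 8 of the 10 fits with 1 liver left out (adjusted p up to 0.0903), and held without WT replicate 3 and without Fbp1-deleted replicate 9. The change without WT replicate 4 was -0.65.

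Transcripts of all 3 IER genes fell, Ier2 with the least spread of the 9 genes tested. Ier2, which encodes a nuclear protein of early growth responses, is a single-exon gene on the minus strand of chromosome 8 (ENSMUSG00000053560.4, 84661331 to 84662852). It had 14.7, 16.4, 15.7, 15.2 and 12.7 CPM in Fbp1-deleted replicates 6 to 10, against 32.2, 35.3, 25.5, 30.7 and 41.1 CPM in WT replicates 1 to 5. No Fbp1-deleted liver came near the lowest WT liver. The change was -1.14 (SE 0.13), or 2.21-fold lower (adjusted p = 7.22e-05, edgeR; exact permutation p = 0.00794, the smallest the design allows). Its biological coefficient of variation, 0.151, was above that of only 25.4% of genes tested, where Jun was above 92.6% and Dusp1 above 87.0%.

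Ier5, known as a cofactor of the heat shock factor HSF1, and Ier3, known for its part in cell survival and ERK signalling, were lower as well. Ier5 (ENSMUSG00000056708.5, chromosome 1, 155096361 to 155099636, minus strand) had 4.07, 3.68, 4.85, 4.01 and 2.54 CPM in Fbp1-deleted replicates 6 to 10, against 6.59, 6.42, 6.23, 7.21 and 8.85 CPM in WT replicates 1 to 5, with no overlap. The change was -0.88 (SE 0.18), or 1.84-fold lower (adjusted p = 0.00482, edgeR). Ier3 (ENSMUSG00000003541.6, chromosome 17, 35821684 to 35822923, plus strand) had 1.49, 1.62, 1.41, 1.64 and 1.93 CPM in Fbp1-deleted replicates 6 to 10, against 3.40, 1.88, 2.82, 3.17 and 3.09 CPM in WT replicates 1 to 5. WT replicate 2 alone reached into the Fbp1-deleted range. These levels rest on 27 to 35 counts in Fbp1-deleted and 46 to 69 counts in WT libraries. The change of Ier3 was -0.83 (SE 0.22), or 1.77-fold lower (adjusted p = 0.0189, edgeR). Calls of Ier2, Ier3, Ier5 and Jun held with every liver left out in turn.

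Per length, Jund was the highest of the 10 genes in both groups, at 129 ± 40.3 in Fbp1-deleted and 96.2 ± 12.9 in WT livers. In Fbp1-deleted livers Dusp1 (102 ± 41.1), Jun (52.1 ± 23.7), Junb (32.8 ± 7.04) and Ier2 (18.3 ± 1.58) followed, and in WT livers Junb (64.6 ± 25.6), Ier2 (41.3 ± 8.05), Dusp1 (40.6 ± 12.9) and Jun (14.8 ± 6.49). From Jund down to Junb in Fbp1-deleted livers, and from Jund down to Egr1 in WT livers, each gene's range overlapped that of the next. Egr1 came sixth in both, at 6.99 ± 1.93 in Fbp1-deleted and 13.3 ± 5.12 in WT livers. Ier3, Fos and Ier5 lay between 2.18 and 2.66 in Fbp1-deleted livers and between 2.57 and 4.83 in WT livers, with neighbours overlapping. Fosb was the lowest, at 0.228 ± 0.127 in Fbp1-deleted and 0.183 ± 0.148 in WT livers.

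Individual livers stood out across several genes. Fbp1-deleted replicate 8 was the lowest of its group for 7 of the 10 genes (Jun, Junb, Jund, Fos, Egr1, Ier3 and Dusp1), and replicate 9 the highest for 4 (Jun, Junb, Egr1 and Dusp1). Among WT livers, replicate 4 was the highest for 4 genes (Jun, Junb, Jund and Egr1), and replicate 3 the lowest for 5 (Fos, Egr1, Ier2, Ier5 and Dusp1). Within the Fbp1-deleted group the highest liver was 5.42 times the lowest for Jun and 3.98 times for Dusp1, against 1.29 times for Ier2 and 1.37 times for Ier3. Fos, scarce in all livers, had the widest span at 8.02 times.

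**Figure D4:**
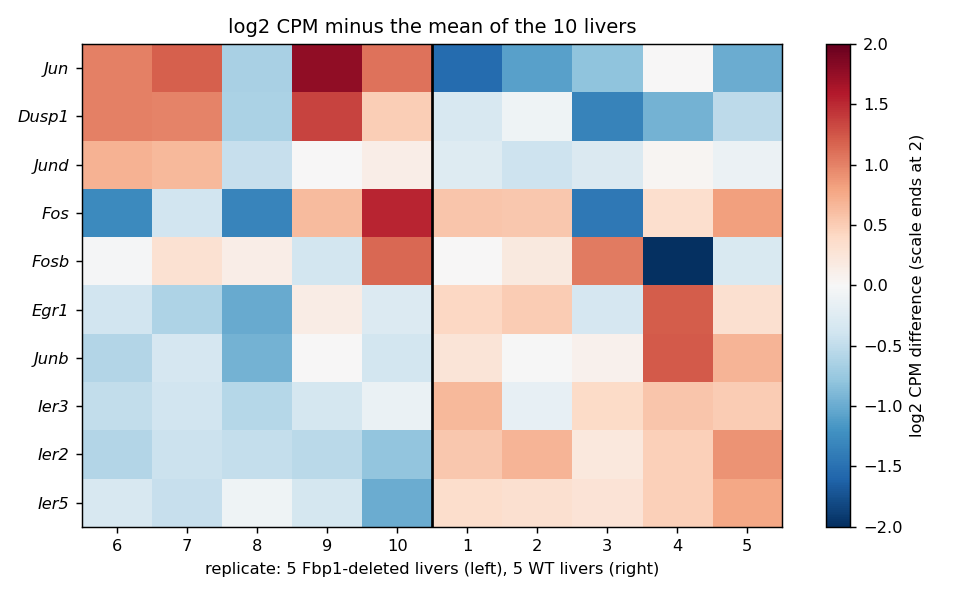
Colour gives log2 CPM (prior count of 2) minus the gene's mean over the 10 livers, with 5 Fbp1-deleted livers left of the line and 5 WT livers right of it, labelled by replicate. Jun and Dusp1 are red in Fbp1-deleted replicates 6, 7, 9 and 10 and blue in replicate 8, and Ier2 and Ier5 are blue in all 5 Fbp1-deleted livers.

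Profiles over the 10 livers were compared by the root mean square difference of log2 CPM, each gene centred on its own mean, as a description. Among the 9 genes, the closest pairs were Ier2 with Ier5 (0.221) and Junb with Egr1 (0.275), and Junb was the nearest of all genes tested to Egr1. Jun and Dusp1 differed by 0.669 and each had closer genes elsewhere, Jun the gene model Gm17300 (0.276), the cytolinker gene Eppk1 (0.278) and the olfactory receptor gene Olfr1033 (0.295), Dusp1 the gene models Gm47922 (0.272) and 9330159M07Rik (0.31) and the collagen gene Col20a1 (0.322). Nearest to Junb were the thrombopoietin gene Thpo (0.241), Egr1 (0.275) and Mxd1 (0.278), and nearest to Egr1 after Junb were Tnfsf13 (0.297) and 9430083B18Rik (0.312). Jund was closest to the nuclear receptor gene Esrra (0.147), Zc3h10 (0.188) and Fam220a (0.201). Ier2 was closest to 4930581F22Rik (0.171), Ggt6 (0.189) and Fads6 (0.191), Ier3 to the caspase gene Casp1 (0.176), Zbtb45 (0.187) and 2810403D21Rik (0.191), and Ier5 to Ocel1 (0.161), Tent4a (0.162) and 2810459M11Rik (0.166). Fos had no gene closer than Gm32391 (0.47), Gm17638 (0.473) and Gm47761 (0.486).

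Genes of the pathways around the immediate early genes moved in both directions as well. Across 7 lists of AP-1, EGR, early response, phosphatase, ERK feedback, transcription factor and MAP kinase genes, 99 genes in all with each counted 1 time, 89 were tested, of which 17 rose and 15 fell. That is 36.0% called, against 20.6% over all genes tested, with a median change of 0.06. By direction, 10.6% of all genes tested were called higher and 10.02% lower. These lists were drawn up with earlier results of the same livers known.

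The list of feedback inhibitors and targets of ERK signalling held 4 genes that fell and 0 that rose among 10 tested (median -0.47). These are 40% and 0%, against 10.02% and 10.6% of all genes tested. The changes of its uncalled genes lay on both sides of 0, from -0.68 to 0.32. Spry4, a Sprouty inhibitor of receptor tyrosine kinase signalling, was at 1.39, 1.56, 3.20, 2.003 and 3.86 CPM in Fbp1-deleted replicates 6 to 10, against 10.5, 12.8, 12.3, 7.49 and 13.1 CPM in WT replicates 1 to 5, a change of -2.22 (SE 0.27, adjusted p = 0.000178, edgeR). Etv5, an ETS factor induced by ERK, fell by 1.01 on the log2 scale (SE 0.20) and the ERK inhibitor gene Spred1 by 0.62 (SE 0.16). The ERK phosphatase gene Dusp6 fell by 0.75 (SE 0.20, adjusted p = 0.0224), a call lost when any 1 of Fbp1-deleted replicates 6 and 7 and WT replicates 2 and 3 was left out (adjusted p up to 0.0595). Spry4 and Etv5 did not overlap between the groups, both lower, as was so for 6.89% of all genes tested.

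MAP kinase phosphatase genes other than Dusp1 went both ways, with 3 of 8 tested higher and 2 lower (median 0.01). These are 37.5% and 25%, against 10.6% and 10.02% of all genes tested. The 2 lower genes were Dusp7 and Dusp6, and Dusp6 is also counted among the ERK feedback genes above. Dusp8, known to act on JNK and p38, stood at 14.9, 14.6, 4.32, 22.9 and 15.9 CPM in Fbp1-deleted replicates 6 to 10, against 0.344, 0.695, 1.41, 4.43 and 0.617 CPM in WT replicates 1 to 5, a change of 3.30 (SE 0.69, adjusted p = 0.01, edgeR). Its lowest Fbp1-deleted liver was replicate 8 and its highest WT liver replicate 4, as for Jun. Without WT replicate 4 the change of Dusp8 was 4.25. The JNK and p38 phosphatase genes Dusp10 and Dusp16 rose by 0.67 (SE 0.22) and 0.52 (SE 0.15), and the ERK phosphatase gene Dusp7 fell by 0.69 (SE 0.16, adjusted p = 0.00776). Leaving out 1 liver ended the call of Dusp10 in 8 of the 10 fits (adjusted p up to 0.121, edgeR) and that of Dusp16 in 5 (up to 0.0697). Dusp10 also lost its call with library totals, upper quartile factors, no filter or limma-voom.

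In the wider AP-1 family 1 of 7 genes tested rose (median 0.29), or 14.3%, where 10.6% of all genes tested were higher. It was Atf3, the stress-induced partner of Jun proteins. Atf3 stood at 3.40, 3.90, 1.21, 8.98 and 5.40 CPM in Fbp1-deleted replicates 6 to 10, against 1.48, 1.23, 1.30, 2.35 and 1.13 CPM in WT replicates 1 to 5. Here too replicate 8 lay within the WT range. The change was 1.61 (SE 0.43, adjusted p = 0.02, edgeR), lost with limma-voom and without WT replicate 2 or 5 (adjusted p up to 0.0903). Of 5 genes of the EGR family and its NAB corepressors, 2 passed the filter (median -0.80) and Egr2, Egr3 and Egr4 did not. Nab2, a corepressor of EGR proteins that Egr1 is known to induce, fell with no overlap between the groups, with 11.2 ± 3.07 CPM in Fbp1-deleted and 27.1 ± 5.06 CPM in WT livers (change -1.27, SE 0.18, adjusted p = 0.000486).

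Of 29 other early response genes tested, 6 rose and 3 fell (median 0.31). These are 20.7% and 10.3%, against 10.6% and 10.02% of all genes tested. The growth arrest genes of the GADD45 family were called in both directions. Gadd45g was at 204.3, 283.7, 94.6, 321.1 and 297.5 CPM in Fbp1-deleted replicates 6 to 10, against 19.2, 21.2, 34.6, 84.3 and 25.7 CPM in WT replicates 1 to 5, without overlap (change 2.70, SE 0.51, adjusted p = 0.00658, edgeR). Gadd45a and Gadd45b fell by 1.90 (SE 0.32) and 1.08 (SE 0.25) on the log2 scale. Phlda1, a growth-factor-induced gene, had 20.5 ± 3.23 CPM in Fbp1-deleted and 71.3 ± 21.3 CPM in WT livers (change -1.80, SE 0.19, adjusted p = 6.34e-05). Sik1, a cAMP-induced kinase that restrains the CREB coactivators, stood at 62.1 to 164.2 CPM in Fbp1-deleted and 42.6 to 55.7 CPM in WT livers, without overlap (change 1.07, SE 0.23). The glucocorticoid-induced kinase gene Sgk1 rose by 1.49 (SE 0.41), Ccn2 by 1.02 (SE 0.26), Maff by 0.64 (SE 0.21) and Btg1 by 0.50 (SE 0.13). The call of Sgk1 was lost in 6 of the 10 fits with 1 liver left out (adjusted p up to 0.0708, edgeR) and that of Maff in 8 (up to 0.112). Both calls were also lost without the filter and with limma-voom, and that of Maff with library totals or upper quartile factors.

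**Figure D5:**
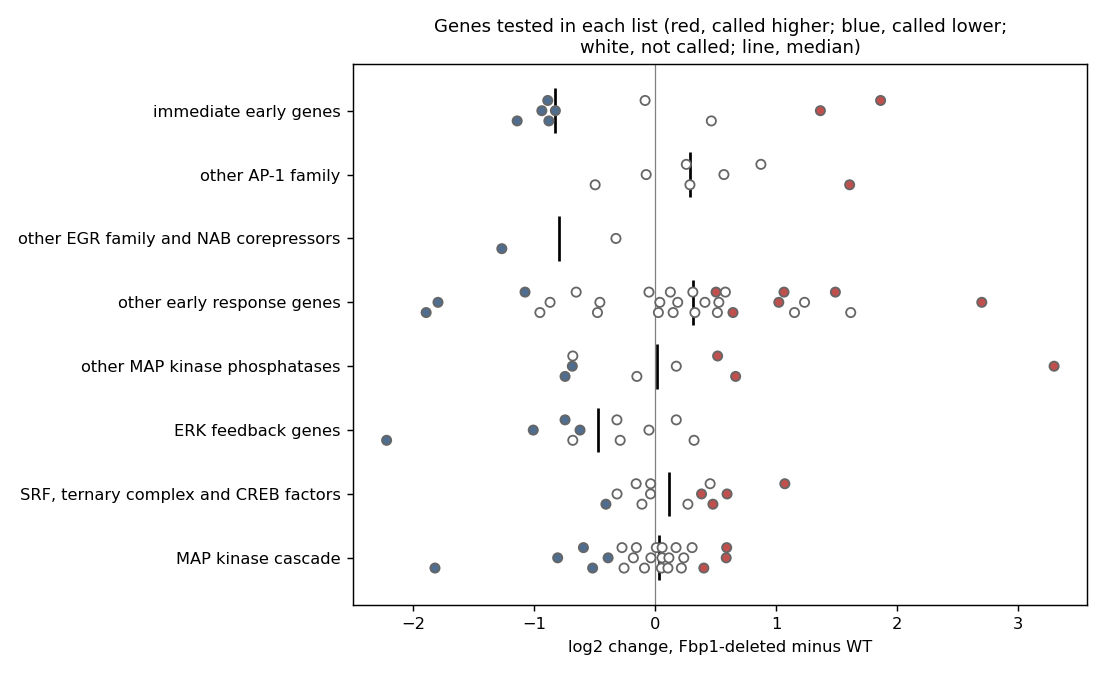
Log2 change (Fbp1-deleted minus WT) of each gene tested in the immediate early group and in 7 related lists (red, called higher; blue, called lower; white, not called; line, median of the list). In ERK feedback genes 4 of 10 are blue and 0 red, where 10.02% of all genes tested were called lower and 10.6% higher. The farthest point to the right is Dusp8 at 3.30.

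Among the kinases of the MAP kinase cascade 3 of 24 tested rose and 5 fell (median 0.03). These are 12.5% and 20.8%, against 10.6% and 10.02% of all genes tested. Braf, which encodes a kinase upstream of ERK, rose by 0.59 (SE 0.14), and the JNK gene Mapk8 by 0.40 (SE 0.10). Of kinases that act in p38 signalling, Map2k6 had 3.22 ± 1.10 CPM in Fbp1-deleted and 11.5 ± 1.70 CPM in WT livers (change -1.82, SE 0.21, adjusted p = 7.75e-05, edgeR), Map2k3 changed by -0.59 (SE 0.12), and the p38 genes Mapk14 and Mapk11 by -0.52 (SE 0.13) and -0.81 (SE 0.26). The p38 gene Mapk12 was not called (change -0.26, adjusted p = 0.286), Mapk13 was below the filter, and the upstream kinase genes Map2k4 (0.01) and Map3k5 (0.24) were not called. Map3k1, which acts towards JNK, changed by -0.39 (SE 0.13). With 1 liver left out, the call of Mapk11 was lost in 7 of the 10 fits (adjusted p up to 0.126, edgeR) and that of Map3k1 in 8 (up to 0.104). Both calls were also lost without the filter, and that of Map3k1 with limma-voom.

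Of 12 transcription factors and coactivators that drive early genes, 4 rose and 1 fell (median 0.12). These are 33.3% and 8.33%, against 10.6% and 10.02% of all genes tested. Crem, a CREB family gene induced by cAMP, rose by 1.07 (SE 0.28, adjusted p = 0.0215, edgeR), the CREB coactivator gene Crtc1 by 0.48 (SE 0.11), the serum response factor coactivator gene Mrtfb by 0.59 (SE 0.17) and the ternary complex factor gene Elk4 by 0.38 (SE 0.09). Crtc2, the coactivator of CREB known for hepatic gluconeogenesis, fell by 0.41 on the log2 scale (SE 0.11), a call lost without Fbp1-deleted replicate 6 (adjusted p = 0.0673). The call of Crem was lost without the filter, and when WT replicate 1, 2 or 5, or Fbp1-deleted replicate 9, was left out (adjusted p up to 0.058 with 1 left out, edgeR). That of Mrtfb was lost in 6 of the 10 fits with 1 liver left out (up to 0.0703). Srf itself was not called (change -0.11, SE 0.14, adjusted p = 0.606).

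Markers of other cell types were compared between the groups as well. For comparison, 10.6% of all genes tested were called higher and 10.02% lower. Of 7 Kupffer cell markers 4 were lower and 0 higher (Vsig4, Cd5l, Csf1r and Timd4), their summed level between 169 and 248.5 CPM in Fbp1-deleted and between 225.5 and 314 CPM in WT livers. With 1 liver left out these calls were lost in 2 (Vsig4), 4 (Cd5l), 5 (Csf1r) and 7 (Timd4) of the 10 fits, with adjusted p up to 0.0954. Of 8 markers of other leukocytes 2 were lower (Ly6c2 and Cd79a), with sums of 8.80 to 14.5 CPM in Fbp1-deleted and 18.6 to 22.8 CPM in WT livers. Of 6 endothelial markers Lyve1 was higher, and the other 5 were not called, with changes between -0.46 and -0.20 (median of the 6, -0.29). Of 7 stellate cell and fibroblast markers Dcn was higher. Its call was lost with library totals, upper quartile factors, the stricter filter or no robust shrinkage. With 1 liver left out it was lost in 7 of the 10 fits (adjusted p up to 0.13, edgeR). Of 5 cholangiocyte markers 0 were called. No marker in these lists was at 0. Whole-liver RNA does not show which cells held the immediate early transcripts, and the part of these markers' cells in their changes was not tested. In bulk tissue fewer cells of a type and less RNA per cell cannot be told apart.

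Heat shock genes, which also respond to stress of the tissue, held 4 genes that rose among 11 tested (median 0.375): Hspa8 at 0.79 (SE 0.14), Bag3 at 0.86 (SE 0.17), Hspa1b at 1.31 (SE 0.33) and Hsph1 at 0.50 (SE 0.14). For this list and the clock genes below, the shares over all genes tested are 10.6% higher and 10.02% lower. The call of Hspa1b was lost without the filter. With 1 liver left out, it was lost in 3 of the 10 fits (adjusted p up to 0.0549, edgeR) and that of Hsph1 in 7 (up to 0.0688). Of 15 clock genes tested (median -0.49) 6 fell, Per3 by 1.998 (SE 0.28), Per2 by 0.62 (SE 0.15), Tef by 0.49 (SE 0.13), Cry2 by 0.53 (SE 0.14), Dbp by 1.83 (SE 0.44) and Ciart by 0.59 (SE 0.16), and 2 rose, Arntl by 1.20 (SE 0.35) and Clock by 0.54 (SE 0.14). The call of Arntl was lost in 5 of the 10 such fits (adjusted p up to 0.0699), that of Ciart in 4, and those of Cry2 and Dbp in 1 each, without Fbp1-deleted replicate 6. Fbp1-deleted replicate 8 lay nearest to the WT livers for Hspa8 (1407 CPM, the other 4 at 1998 to 2130) and Per3 (28.5 CPM, the other 4 at 12.7 to 16.1). The part of the hour of collection and of tissue handling in the changes of the immediate early genes was not tested.

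The library did not keep the strand, and the spans of 4 of the genes overlap another annotated gene, so part of their counts is uncertain. The partners that passed the filter were not called. Prdx2, on the other strand from Junb, changed by -0.18 (SE 0.10, adjusted p = 0.204, edgeR). Ergic1, on the other strand from Dusp1, changed by 0.06 (SE 0.10, adjusted p = 0.699, edgeR), and its sign turned with library totals or upper quartile factors. The antisense gene Gm11175 within Jund changed by 1.65 (SE 1.02, adjusted p = 0.292, edgeR). AC122252.4 and AC122252.1, which overlap Dusp1 on its own strand, had no matched counts, so their part in the counts of Dusp1 was not tested. Junos, antisense to Jun, had 3 to 9 counts in Fbp1-deleted and 4 to 11 counts in WT libraries. Jund and Gm11175 cannot be told apart over the span they share.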

How the data were processed

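Whole-liver RNA of 10 mice was sequenced. Per the labels' protocols the mRNA libraries were non-directional. The authors deposited 1 table of estimated counts, by gene, which the submitters' processing notes tie to CASAVA, Salmon and GRCm38, and how transcripts were summed is not given in the sources used here. All counts were whole numbers (0 were not). Symbols came from GENCODE M21 (52175 identifiers matched with version, 1180 with another version, 37 unmatched, with 0.00123% of counts). Between libraries of a group, chi-square over its degrees of freedom was at least 16.2, so none was counted as a duplicate.

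All genes were fitted in edgeR 4.0.16 (R 4.3.3): filterByExpr, TMM, robust quasi-likelihood F test, Fbp1-deleted against WT, no covariate. SE was computed as the size of the log2 change over the root of F. Profiles used log2 CPM with a prior count of 2. The fit was also run on counts simulated from its own means and dispersions. Such counts cannot show how it treats a liver that stands apart. Alternatives were RLE, upper quartile and library total scaling, no filter, a filter of 1 CPM in 5 livers, DESeq2 1.42.0, limma-voom (limma 3.58.1), no robust shrinkage, a threshold of 0.01 and each liver left out. For called list and marker genes outside the naming rule, and uncalled genes named with a fit, these were run after the data were seen. Fbp1, the 10 members and, as genes most like each member, the 3 with the smallest profile differences were named. Of each related list the 3 called genes with the smallest adjusted p and called genes of the minor direction were named, except 1 gene that is not reported here, with further called genes, Fosl1, Fosl2 and Srf added after their values were seen. TGACGT and TGACATCA were searched after the windows were seen. The members and lists were chosen with earlier results of these data known. The design text calls the 5 livers of each group biological replicates; it also names STAR, featureCounts and DESeq2, whose counts were not used here.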

Additional observations from a re-analysis of the deposited data

Results flagged for a closer look

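Single livers that lay far from the other 4 of their group were sought among 138 gene and group combinations. The rule was Dixon's: a gap to the nearest liver above 0.71 of the group's range. For normally spread and independent values chance gives about 6.9. Genes measured in the same livers are not independent, so no conclusion is drawn from the number found. There were 11. In WT replicate 4, Atf3 was at 2.35 CPM (the others at most 1.48), Gadd45g at 84.3 CPM (at most 34.6), Dusp8 at 4.43 CPM (at most 1.41) and Crem at 22.3 CPM (at most 15.8). In Fbp1-deleted replicate 8, Hspa8 was at 1407 CPM (the others at least 1998), Hsph1 at 44.4 CPM (at least 61.5) and Per3 at 28.5 CPM (at most 16.1). In WT replicate 1, Dusp10 was at 4.18 CPM (at most 3.33 in the others) and Ergic1 at 40.3 CPM (at least 50.5). Etv5 was at 9.32 CPM in WT replicate 2 (at most 6.64 in the others) and Crtc2 at 48.96 CPM in WT replicate 5 (at most 39.3). No value of the 10 immediate early genes was among them.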

How the results depend on the processing

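The 2 higher and 5 lower calls among immediate early genes stood with RLE factors, library totals, upper quartile factors, the stricter filter, DESeq2, limma-voom and edgeR without robust shrinkage. Without the filter 1 was higher and 3 lower, and at a threshold of 0.01 there were 0 higher and 2 lower. With 1 liver left out, 1 to 3 were higher (1 without Fbp1-deleted replicate 6 or 9 or WT replicate 4 or 5) and 3 to 5 lower (3 without Fbp1-deleted replicate 6). Ier2 and Ier5 held their calls under all 19 alternatives, and Jun and Ier3 lost theirs at 0.01 alone. Among the genes refitted, the sign turned for 3, none of them called: Fos, whose change ran from -0.75 to 0.15 with 1 liver left out, Fosl1 (-0.34 to 0.26 with 1 left out, 0.15 with limma-voom) and Ergic1 (-0.024 with library totals, -0.008 with upper quartile factors, -0.006 to 0.089 with 1 left out). Over all genes tested, leaving out 1 liver gave 1066 (without Fbp1-deleted replicate 9; 1086 without replicate 6) to 2060 higher and 1019 (without Fbp1-deleted replicate 6) to 1858 lower calls, and the 0.01 threshold 678 and 633. Of the calls 51.5% were higher with TMM and 37.7% with library totals. In the 7 related lists the counts were 4 higher and 9 lower at 0.01, and 10 (without WT replicate 2; 11 without Fbp1-deleted replicate 9) to 22 higher and 11 to 18 lower with 1 liver left out. No paired analysis was possible because the groups share no replicate numbers. Depth limits Fos (14 to 120 counts per library) and Fosb (0 to 16). It also limits Ier3 (27 to 35 counts in Fbp1-deleted and 46 to 69 in WT libraries).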
